A study of Mus musculus with 20 samples.

Results

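A set of 10 genes of neuronal RNA-binding proteins was followed in sorted nuclei of mouse spinal cord: Rbfox1, Rbfox2, Rbfox3, Nova1, Nova2, Elavl2, Elavl3, Elavl4, Celf4 and Srrm4. They were chosen by symbol and make up 10 of the 43629 genes in the table of counts, and all 10 passed the filter on low counts in every comparison. The nuclei came from mice with experimental autoimmune encephalomyelitis (EAE), in which an autoimmune response inflames brain and spinal cord and which serves to model multiple sclerosis, taken 15 days after active immunization, and from healthy mice. Flow cytometry on NeuN, the protein product of Rbfox3, divided the nuclei of each condition into a NeuN-positive and a NeuN-negative sort. This gave the 4 groups EAE NeuN-positive, healthy NeuN-positive, EAE NeuN-negative and healthy NeuN-negative, with 5 libraries each. The sources used here do not give the strain, age or sex of the mice, the antigen, or whether healthy mice had adjuvant. No transgene or deletion is named for any group. NeuN marks most neurons but not every neuronal type, so the NeuN-negative sort can hold nuclei of neurons as well as of glia, vessels and infiltrating leukocytes.

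The 10 proteins bind RNA and shape which transcript forms a neuron makes. RBFOX proteins bind UGCAUG in introns and act on nearby exons, NOVA proteins bind clusters of YCAY and act on exons of synaptic transcripts, and SRRM4 drives the inclusion of the short microexons of neurons. The neuronal ELAVL proteins (also named Hu proteins) bind U-rich stretches in introns and untranslated regions and act on both splicing and mRNA stability, and CELF4 binds many transcripts of synaptic proteins. In people with some tumours, antibodies against NOVA proteins (anti-Ri) and against ELAVL2, ELAVL3 and ELAVL4 (anti-Hu) accompany neurological disease.

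The promoter windows of Elavl3 and Nova1, the pair whose counts did not separate the healthy sorts in the unpaired test below, are shown with that of Rbfox3, which encodes the antigen that was sorted. Each holds 250 bases before and 50 bases after a transcript start in the RefSeq annotation of GRCm38.p6, read 5′ to 3′ on the minus strand, with capitals marking CAGCTG and TATAAA. The windows lie at chr9:22051974-22052273 for Elavl3, chr12:46818718-46819017 for Nova1 and chr11:118760992-118761291 for Rbfox3.
Elavl3: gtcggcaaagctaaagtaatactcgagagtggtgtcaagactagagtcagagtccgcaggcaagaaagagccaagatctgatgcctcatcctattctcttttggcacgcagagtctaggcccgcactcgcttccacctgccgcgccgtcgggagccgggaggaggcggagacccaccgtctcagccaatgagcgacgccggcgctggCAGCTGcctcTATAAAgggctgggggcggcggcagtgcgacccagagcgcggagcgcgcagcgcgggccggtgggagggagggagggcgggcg
Nova1: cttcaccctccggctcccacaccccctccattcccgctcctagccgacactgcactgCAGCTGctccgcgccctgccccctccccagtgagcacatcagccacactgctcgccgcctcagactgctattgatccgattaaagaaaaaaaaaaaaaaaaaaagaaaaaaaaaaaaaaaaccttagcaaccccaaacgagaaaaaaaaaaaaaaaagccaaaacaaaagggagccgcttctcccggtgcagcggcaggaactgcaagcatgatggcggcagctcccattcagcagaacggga
Rbfox3: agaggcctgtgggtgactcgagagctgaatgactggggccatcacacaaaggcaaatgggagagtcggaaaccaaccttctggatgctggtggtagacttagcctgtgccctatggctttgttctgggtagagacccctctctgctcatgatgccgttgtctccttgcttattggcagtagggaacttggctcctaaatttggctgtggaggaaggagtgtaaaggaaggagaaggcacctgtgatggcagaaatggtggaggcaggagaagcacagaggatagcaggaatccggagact

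The Elavl3 window held 29 CG dinucleotides and the Nova1 window 14, against a median of 7 over the 32851 promoter windows of the annotation. The Rbfox3 window held 4, but it is no like start: it lies inside the gene, whose 5′ end on the minus strand is at 118911597 in GENCODE M21, whereas the other windows sit at or near the ends of their genes. Matches to CAGCTG, an E-box that reads the same on both strands, occurred in windows of Elavl2, Elavl3, Elavl4, Nova1 and Rbfox1, and in 16.3% of all windows. TATAAA, searched on both strands, occurred for Elavl3 alone among these genes and in 13.6% of all windows. TTCAGCACC, a core of the site of the repressor REST, occurred in 0.371% of all windows and in none of the windows of these genes. These matches describe the letters of 17 windows of the 8 genes with an entry, and no entry was found for Rbfox2 and Celf4.

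Members of a family could share reads where their exons are alike, so their whole transcripts were compared in the GENCODE M21 annotation of GRCm38. No run of 50 bases was common to any pair within a family. The longest common run was 29 bases, for Rbfox1 and Rbfox2 as for Elavl3 and Elavl4. The runs printed here lie in coding sequence. Elavl3 and Elavl4 had their longest common run, 29 bases, at chr9:22018600-22018628 and chr4:110206429-110206457, both on the minus strand, and Rbfox1 and Rbfox3 shared 20 bases at chr16:7363875-7363894 on the plus strand and chr11:118496361-118496380 on the minus strand.
Elavl3 and Elavl4: ttcggcttcgtcaccatgaccaactacga
Rbfox1 and Rbfox3: caggatggattttatggtgc

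Total counts ran from 7072200 to 18686997 in EAE NeuN-positive, 12076860 to 30499828 in healthy NeuN-positive, 3149209 to 15525441 in EAE NeuN-negative and 8336330 to 37689267 in healthy NeuN-negative libraries. The 18 neuron markers summed to 41750 to 69430 CPM in EAE and 42400 to 62300 CPM in healthy NeuN-positive libraries, and to 1913 to 6093 CPM in EAE and 2787 to 7137 CPM in healthy NeuN-negative libraries, with no marker at 0 in any group. CPM is the count scaled to the library's size after TMM scaling. The titles number the libraries of each group, and a number is taken here to stand for 1 mouse in both sorts, which is inferred from the data and stated by no label. The mice EAE 2, EAE 4 and healthy 3 stood apart in their NeuN-positive libraries, with 9.35%, 5.30% and 3.003% mitochondrially encoded counts, against 1.08 to 1.22% in the other EAE and 0.197 to 0.833% in the other healthy NeuN-positive libraries. The same 3 libraries held the highest sums of the 15 oligodendrocyte markers in this sort, at 98530, 50290 and 44710 CPM. Results for members are given with and without these mice where the call differs.

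Of the 10 genes, 8 were higher in NeuN-positive than in NeuN-negative nuclei of healthy mice, and all 10 were in EAE mice. Of all genes tested, 22.8% were called higher in healthy and 15.5% in EAE mice. Rbfox3, which encodes the sorted antigen, is among the 10. The genes not called in healthy mice were Elavl3, whose sorts were close to equal there, and Nova1, which overlapped between the sorts but was called with the number in the titles as a block. Whether the sort difference itself differs between EAE and healthy mice was tested too. With all 20 libraries, neither gene passed without that block (edgeR, adjusted p = 0.0912 for Elavl3 and 0.31 for Nova1). Both passed with it (edgeR, adjusted p = 0.00505 for Elavl3 and 0.0241 for Nova1), in a fit that called 9.74% of all genes higher. The outcome thus depends on a pairing that no label states. Between EAE and healthy mice, Nova1 was called lower in NeuN-negative nuclei, as were 12.6% of all genes tested. No member passed the test in NeuN-positive nuclei. All 5 EAE libraries of that sort held less Srrm4 than any healthy library, at the closest 63.1 against 63.7 CPM. A full separation in that direction was seen for 3.96% of 20444 genes.

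The sort comparison in healthy mice called 8 members higher and 0 lower at an adjusted p under 0.05 (edgeR quasi-likelihood test, Benjamini-Hochberg over all genes), against 22.8% of 17134 genes higher and 23% lower. With the number in the titles as a block, 9 members were called higher, against 33.2% of genes. In EAE mice, 10 members were called higher and 0 lower, against 15.5% and 14.8% of 17982 genes. Rbfox3 is counted here, although its difference only checks the sort on its own protein. The median log2 fold change of the 10 genes was 2.05 in EAE and 2.10 in healthy mice, and that of all genes tested was -0.16 in EAE and -0.01 in healthy mice. No member was called lower in a sort comparison, and none had an unadjusted p under 0.05 in that direction or was called lower by DESeq2.

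For EAE against healthy mice, NeuN-positive nuclei gave 0 members higher and 0 lower, against 6.55% and 3.68% of 16675 genes (10.2% in either direction). At an unadjusted p under 0.05 there were 2 members higher (Elavl2 and Elavl4) and 3 lower (Rbfox2, Rbfox3 and Srrm4). The share of all genes under that unadjusted threshold is not given here, so whether these members exceed it was not tested. The DESeq2 Wald test called 1 member, Elavl4, higher, and it called 1746 of 16637 genes higher. NeuN-negative nuclei gave 0 members higher and 1 lower, against 15.1% and 12.6% of 17604 genes (27.7% in either direction). The single member is close to the share of all genes called lower, and without the mice EAE 2, EAE 4 and healthy 3 it was 0. Without those mice the sort comparisons still called 10 members higher in EAE and 8 in healthy mice. In this bulk RNA, fewer nuclei of a type and less RNA per nucleus cannot be told apart.

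**Figure D1:**
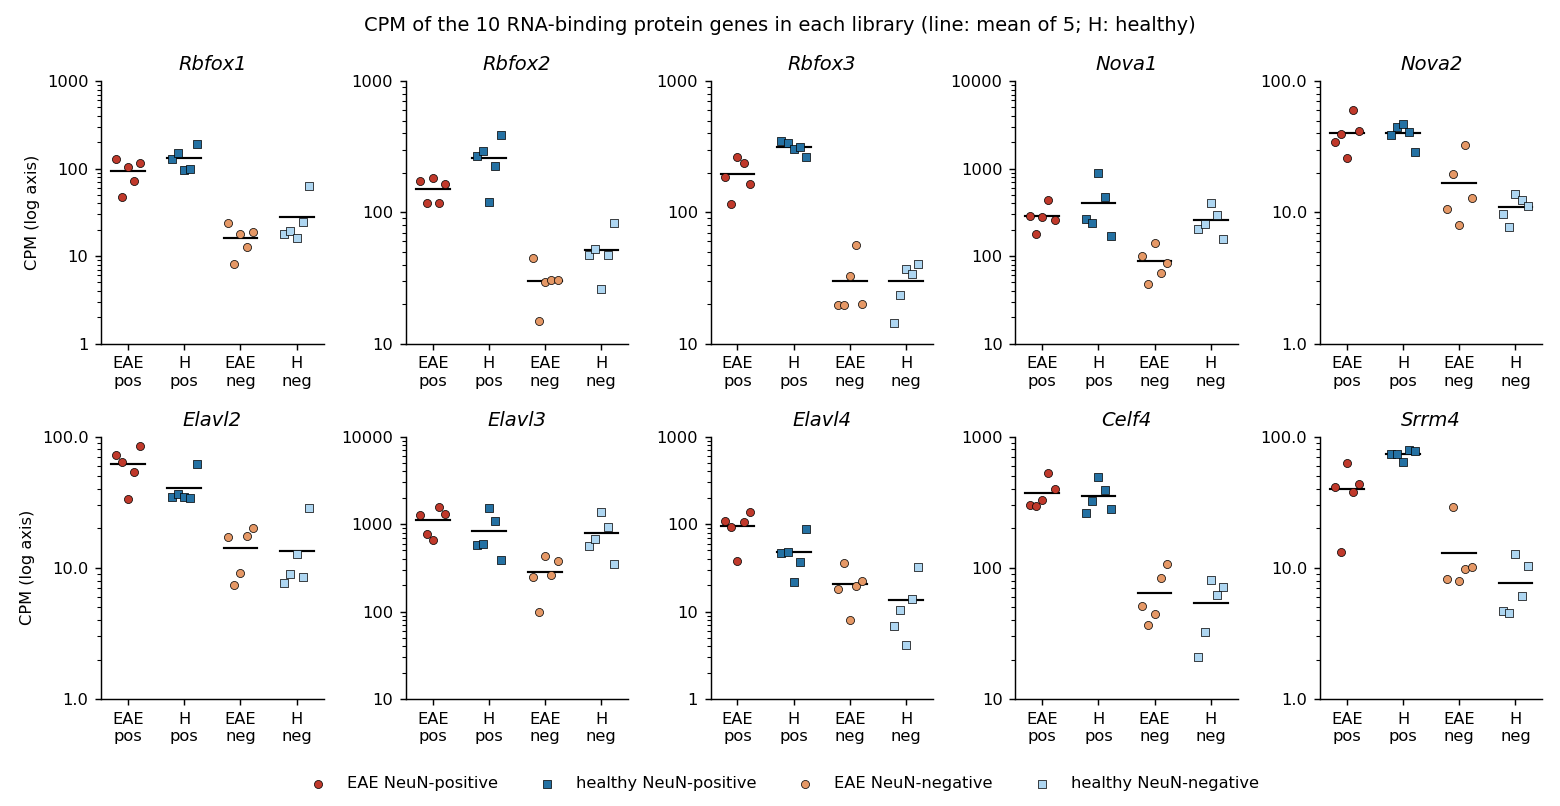
CPM of each of the 10 genes (log axis) in every library of the 4 groups, with a line at the mean of 5 libraries. Circles are EAE and squares healthy mice, and pos and neg are the NeuN-positive and NeuN-negative sorts. Elavl3 lies at similar heights in both healthy sorts and Nova1 overlaps between them. The EAE NeuN-negative libraries of Nova1, at 47.4 to 140 CPM, sit below every healthy library. Those of Elavl3, at 99.7 to 435 CPM, overlap the healthy NeuN-negative libraries, with 3 of 5 below all of these.

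Set per kilobase of annotated exon so that genes can be compared, Elavl3 was the highest of the 10 in all 4 groups. Its mean was 162 ± 54.9 CPM per kb in EAE and 122 ± 68.6 in healthy NeuN-positive nuclei, and 41.3 ± 18.9 in EAE and 113 ± 57.5 in healthy NeuN-negative nuclei (SD, n = 5 each). In EAE NeuN-positive nuclei it was followed by Celf4 (43.2 ± 11.1 CPM per kb), Rbfox3 (33.4 ± 10.1) and Nova1 (33.1 ± 10.9), whose spreads overlapped. Next came Rbfox1, Rbfox2 and Elavl4 at 21.3, 18.6 and 17.8 CPM per kb, within 1 SD of each other, and last Elavl2, Nova2 and Srrm4 at 7.43, 4.82 and 4.58 CPM per kb.

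The healthy NeuN-positive order began with Elavl3, Rbfox3 (53.9 ± 5.72 CPM per kb), Nova1 (46.6 ± 33.6) and Celf4 (40.9 ± 10.9). The spreads of Rbfox3, Nova1 and Celf4 overlapped, and the wide spread of Elavl3 reached those of Rbfox3 and Nova1. Rbfox2 and Rbfox1 followed at 31.7 and 30.3 CPM per kb. The others lay lower, with Elavl4 at 9.01, Srrm4 at 8.47, Elavl2 at 4.86 and Nova2 at 4.80 CPM per kb.

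In EAE NeuN-negative nuclei Nova1 (9.99 ± 4.09 CPM per kb), Celf4 (7.52 ± 3.50) and Rbfox3 (5.11 ± 2.72) came after Elavl3. Elavl4, Rbfox2 and Rbfox1 followed at 3.87, 3.69 and 3.69 CPM per kb, and Nova2, Elavl2 and Srrm4 at 1.99, 1.71 and 1.499 CPM per kb, with the genes of each trio within 1 SD of each other. The healthy NeuN-negative order was Elavl3, Nova1 (29.7 ± 11.1 CPM per kb), then Rbfox1, Rbfox2, Celf4 and Rbfox3 at 6.39, 6.29, 6.24 and 5.11 CPM per kb, and Elavl4, Elavl2, Nova2 and Srrm4 at 2.52, 1.61, 1.30 and 0.888 CPM per kb. In that group the means of Elavl3 and Nova1 stood above those of every other member by more than the SDs.

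Rbfox3 (chromosome 11, 118489762 to 118911597, minus strand, GENCODE M21 on GRCm38 as for all positions of genes here) encodes NeuN. Its NeuN-positive libraries held 186, 116, 264, 238 and 166 CPM in EAE mice and 351, 335, 306, 313 and 263 CPM in healthy mice. Its NeuN-negative libraries held 19.8, 19.7, 32.8, 56.3 and 20.1 CPM in EAE mice and 14.3, 23.4, 36.8, 33.8 and 40.4 CPM in healthy mice. The sorts did not overlap in either condition, as for 10.7% of 20444 genes with the NeuN-positive sort higher and 7.07% with it lower in EAE mice, and 14.2% and 15.4% in healthy mice. The ratio of the sorts within a number was 4.23 to 9.40 in EAE and 6.51 to 24.5 in healthy mice, a check of the sort that is given without a test.

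Among NeuN-positive nuclei, 4 of the 5 EAE libraries held less Rbfox3 than every healthy library, and EAE 3 lay just above the lowest healthy one. The log2 fold change of EAE over healthy was -0.62 ± 0.22 (SE) and did not pass the test (edgeR, adjusted p = 0.0918). Without EAE NeuN-positive library 3 it was -0.74 and passed (edgeR, adjusted p = 0.0398), the 1 of 10 fits with a library left out that called it. That fit also called 1462 genes lower, against 613 with all libraries. Of 7 other settings, 0 called Rbfox3. The sort itself chose nuclei by the protein of this gene, and how far that limits the range of its RNA was not tested. In NeuN-negative nuclei the log2 fold change of Rbfox3 was 0.26 ± 0.39 (edgeR, adjusted p = 0.633).

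Rbfox1 (chromosome 16, 5885355 to 7411526, plus strand), a splicing factor whose loss in mouse brain is known to raise excitability, ranged over 47.4 to 128 CPM in EAE and 97.1 to 193 CPM in healthy NeuN-positive libraries, and over 8.07 to 23.9 CPM in EAE and 16.1 to 62.9 CPM in healthy NeuN-negative libraries. The sorts did not overlap in either condition, whereas the conditions did within each sort. NeuN-positive over NeuN-negative, its log2 fold change was 2.46 ± 0.36 in EAE (edgeR, adjusted p = 0.000103) and 2.30 ± 0.38 in healthy mice (adjusted p = 0.000333). Its ratio between the sorts of a number varied little in EAE mice, at 5.37 to 6.11, and more in healthy mice, at 3.07 to 7.66.

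Rbfox2 (chromosome 15, 77078990 to 77307004, minus strand) is the family member that is also active in many non-neuronal tissues. It ranged over 118 to 184 CPM in EAE and 120 to 385 CPM in healthy NeuN-positive libraries, and over 14.8 to 44.7 CPM in EAE and 25.9 to 83.1 CPM in healthy NeuN-negative libraries. Again the sorts separated fully and the conditions overlapped. The sort log2 fold change was 2.27 ± 0.33 in EAE (edgeR, adjusted p = 9.49e-05) and 2.39 ± 0.32 in healthy mice (adjusted p = 7.57e-05).

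EAE over healthy, Rbfox1 and Rbfox2 had negative fold changes in both sorts, none of which passed. In NeuN-positive nuclei they were -0.44 ± 0.27 for Rbfox1 (edgeR, adjusted p = 0.299) and -0.68 ± 0.26 for Rbfox2 (adjusted p = 0.108). Leaving out healthy NeuN-positive library 3, the lowest healthy library for Rbfox2, gave -0.87 for Rbfox2 (edgeR, adjusted p = 0.0198). This was the 1 of 10 such fits that called it, and it called 998 genes lower, against 613 with all libraries. In NeuN-negative nuclei the values were -0.54 ± 0.38 (edgeR, adjusted p = 0.295) and -0.52 ± 0.31 (adjusted p = 0.214).

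Nova1 (chromosome 12, 46694517 to 46818929, minus strand) encodes a splicing factor known for its part in spinal cord and brainstem. Its NeuN-positive libraries held 289, 180, 277, 442 and 260 CPM in EAE mice and 267, 239, 893, 469 and 169 CPM in healthy mice. In NeuN-negative libraries it stood at 101, 47.4, 140, 64.0 and 84.0 CPM in EAE mice and 205, 234, 409, 297 and 157 CPM in healthy mice. The healthy sorts overlapped, with healthy 3 the highest library in both, while the EAE sorts were fully separate.

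NeuN-positive over NeuN-negative, the log2 fold change of Nova1 was 1.66 ± 0.35 in EAE mice (edgeR, adjusted p = 0.00199) and 0.67 ± 0.46 in healthy mice (adjusted p = 0.26). With the number in the titles as a block the healthy value was 0.50 ± 0.14 and passed (edgeR, adjusted p = 0.00871). Within numbers, the ratio of the sorts was 2.85, 3.79, 1.98, 6.90 and 3.09 in EAE mice and 1.31, 1.02, 2.18, 1.58 and 1.08 in healthy mice. Every ratio was above 1, and EAE 3 and healthy 3 were the numbers at which the conditions overlapped.

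In NeuN-negative nuclei all 5 EAE libraries held less Nova1 than any healthy library. A full separation in that direction was seen for 9.92% of 20444 genes, and in the other for 7.16%. The mean was 87.3 ± 35.7 CPM in EAE and 260 ± 97.4 CPM in healthy mice (SD, n = 5 each), and the log2 fold change of -1.39 ± 0.37 passed (edgeR, adjusted p = 0.0124). Without the mice EAE 2, EAE 4 and healthy 3 it was -0.80 and missed the threshold (edgeR, adjusted p = 0.0527). In NeuN-positive nuclei the log2 fold change was -0.44 ± 0.42 (edgeR, adjusted p = 0.508), and it was 0.10 without healthy library 3.

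Nova2 (chromosome 7, 18925888 to 18965319, plus strand), known for its part in cortex and in axon guidance, was present at lower counts. It ranged over 26.1 to 60.5 CPM in EAE and 28.9 to 47.2 CPM in healthy NeuN-positive libraries, and over 8.01 to 32.3 CPM in EAE and 7.72 to 13.7 CPM in healthy NeuN-negative libraries. The healthy sorts separated fully, with a log2 fold change of 1.91 ± 0.25 (edgeR, adjusted p = 5.40e-05). The EAE sorts overlapped, since EAE NeuN-negative library 4 was above EAE NeuN-positive library 3, and the log2 fold change was 1.14 ± 0.41 (edgeR, adjusted p = 0.0436).

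That EAE call for Nova2 was lost when any of 6 libraries was left out (EAE NeuN-negative 1, 3 or 5, or EAE NeuN-positive 1, 4 or 5), with log2 fold changes of 0.99 to 1.25 in these fits and adjusted p up to 0.0800 (edgeR). It was also lost with DESeq2 size factors (1.02, adjusted p = 0.0737) and with the DESeq2 Wald test (1.02, adjusted p = 0.0575). Between conditions, Nova2 had log2 fold changes of 0.09 ± 0.26 in NeuN-positive (edgeR, adjusted p = 0.845) and 0.89 ± 0.43 in NeuN-negative nuclei (adjusted p = 0.124). The first is -0.10 when libraries are scaled to their neuron marker counts.

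**Figure D2:**
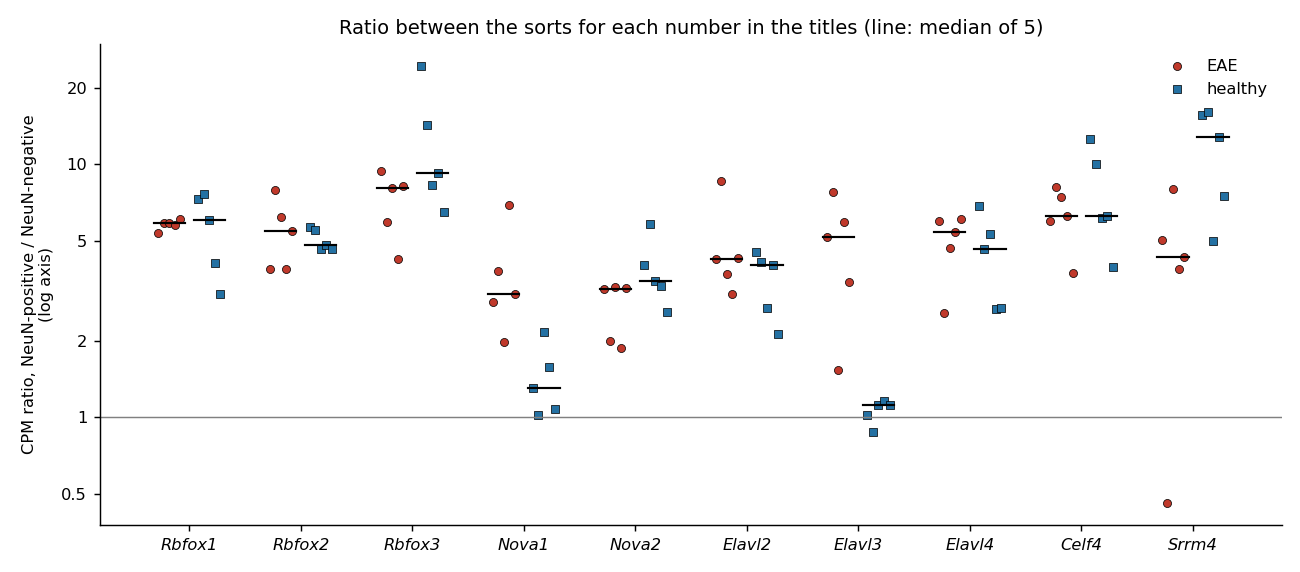
Ratio of CPM in the NeuN-positive over the NeuN-negative library of the same number (log axis), for EAE (circles, left of each pair) and healthy mice (squares), with a line at the median of 5. The Elavl3 ratios lie at 1.53 to 7.77 in EAE and 0.877 to 1.16 in healthy mice, while 1 Srrm4 ratio, that of EAE 2, falls to 0.459.

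Elavl3 (chromosome 9, 22015005 to 22052023, minus strand) encodes the neuronal HuC protein, often used as a marker of neurons. Its NeuN-positive libraries held 1272, 775, 666, 1557 and 1300.0 CPM in EAE mice and 572, 594, 1545, 1089 and 391 CPM in healthy mice. In NeuN-negative libraries it stood at 245, 99.7, 435, 263 and 381 CPM in EAE mice and 562, 678, 1380.0, 937 and 349 CPM in healthy mice. The healthy sorts covered nearly the same range, and the order of the 5 healthy numbers was the same in both, with 3 and 4 highest and 5 lowest. In EAE mice every NeuN-positive library was above every NeuN-negative one.

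NeuN-positive over NeuN-negative, the log2 fold change of Elavl3 was 1.89 ± 0.42 in EAE mice (edgeR, adjusted p = 0.00264) and 0.11 ± 0.46 in healthy mice (adjusted p = 0.875), where its sign changed without healthy NeuN-positive library 3 (-0.26) or healthy NeuN-negative library 1 (-0.01) or 5 (-0.11). With the number as a block the healthy value was 0.11 ± 0.10 (edgeR, adjusted p = 0.327). Within numbers the ratio of the sorts was 5.18, 7.77, 1.53, 5.93 and 3.42 in EAE mice and 1.02, 0.877, 1.12, 1.16 and 1.12 in healthy mice. The ranges did not overlap, and each healthy ratio was close to 1. The share of all genes whose ratios separate like this was not computed.

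Between conditions, Elavl3 fell on both sides of the threshold in NeuN-negative nuclei. The mean was 285 ± 130 CPM in EAE and 781 ± 396 CPM in healthy mice (SD, n = 5 each), and 3 of the 5 EAE libraries were below every healthy one. The log2 fold change of -1.28 ± 0.48 just missed (edgeR, adjusted p = 0.0548). It was -1.496 without EAE NeuN-negative library 3 (edgeR, adjusted p = 0.0318) and -1.54 without healthy NeuN-negative library 5 (adjusted p = 0.0307), and the DESeq2 Wald test gave -1.25 (adjusted p = 0.0118). These 3 fits called 2806, 2234 and 2617 genes lower, against 2220 in the main fit. Elavl3 was called in 2 of 10 fits with a library left out and in 3 of 6 other settings. Without the mice EAE 2, EAE 4 and healthy 3 its log2 fold change was -0.59 (edgeR, adjusted p = 0.241). In NeuN-positive nuclei the value was 0.47 ± 0.38 (edgeR, adjusted p = 0.436).

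Other measures differed between the same libraries as Elavl3 and Nova1, and the mitochondrial share did so in no common direction. Healthy 3 and 4, the numbers with the most of both genes in each healthy sort, had the highest mitochondrial shares of their groups, 3.003% and 0.833% in NeuN-positive and 4.51% and 2.03% in NeuN-negative libraries. EAE NeuN-negative library 2, the lowest for both genes, had the highest share of all libraries (14.6%). EAE NeuN-negative library 3, the highest of its group for both genes, had the lowest share of that group (2.18%). In NeuN-negative nuclei the neuron markers overlapped between conditions, with 2 of 18 called lower and 0 higher and a median log2 fold change of -0.17. The monocyte and macrophage markers were called higher for 16 of 16 and summed to 843 to 2687 CPM in EAE and 82.6 to 133 CPM in healthy mice, and the T cell markers for 14 of 14 (148 to 356 CPM in EAE, 6.46 to 18.7 CPM in healthy mice). The oligodendrocyte markers were called lower for 9 of 15 and higher for 0, with sums of 35150 to 113000 CPM in EAE and 45260 to 75560 CPM in healthy mice. The oligodendrocyte precursor markers were called lower for 6 of 9 and higher for 1, and their sums separated fully, at 183.5 to 458.9 CPM in EAE and 619.3 to 1266 CPM in healthy mice. The astrocyte markers were called lower for 6 of 14 and higher for 0, with sums of 1067 to 3350 CPM in EAE and 2713 to 5031 CPM in healthy mice. No gene of these lists was at 0. The part of these measures in the Elavl3 and Nova1 results was not tested.

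The annotation places Gm49318, a protein-coding gene on the same strand, over 15644 bases of Elavl3, and the table of counts does not list it. The sources used here do not say whether reads were counted by strand.

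Elavl2 (chromosome 4, 91250763 to 91400785, minus strand) and Elavl4 (chromosome 4, 110203722 to 110351909, minus strand) encode the related HuB and HuD proteins. Elavl2 held 72.8, 63.6, 33.6, 53.3 and 85.5 CPM in EAE and 34.6, 36.8, 34.5, 34.1 and 61.8 CPM in healthy NeuN-positive libraries. Elavl4 held 108, 93.5, 37.6, 105 and 137 CPM in EAE and 46.9, 48.3, 21.98, 37.2 and 88.4 CPM in healthy NeuN-positive libraries. For both genes number 5 was the highest library of each condition and EAE 3 the lowest of the EAE libraries, and 4 of 5 EAE libraries exceeded every healthy library for Elavl4, against 3 of 5 for Elavl2.

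The log2 fold change of EAE over healthy in NeuN-positive nuclei was 1.08 ± 0.37 for Elavl4 (edgeR, adjusted p = 0.0731) and 0.70 ± 0.27 for Elavl2 (adjusted p = 0.109), so neither passed. Without EAE NeuN-positive library 3 both passed, at 1.29 (edgeR, adjusted p = 0.0146) and 0.86 (adjusted p = 0.0262). Elavl4 also passed without healthy NeuN-positive library 5 (edgeR, 1.39, adjusted p = 0.0284). Of 10 fits with a library left out, 1 thus called Elavl2 and 2 called Elavl4. The fit without EAE library 3 called 1662 genes higher, against 1092 with all libraries. Without the mice EAE 2, EAE 4 and healthy 3 the values were 0.88 for Elavl4 (edgeR, adjusted p = 0.2) and 0.73 for Elavl2 (adjusted p = 0.19).

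In NeuN-negative libraries Elavl2 ranged over 7.42 to 20.03 CPM in EAE and 7.68 to 28.8 CPM in healthy mice, and Elavl4 over 8.01 to 36.1 CPM in EAE and 4.13 to 32.6 CPM in healthy mice. The conditions overlapped for both. The log2 fold changes were 0.36 ± 0.42 for Elavl2 (edgeR, adjusted p = 0.54) and 0.93 ± 0.50 for Elavl4 (adjusted p = 0.169), and the Elavl4 value passed at 1.40 without healthy NeuN-negative library 5 (edgeR, adjusted p = 0.0424).

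Between sorts, both were called higher in NeuN-positive nuclei. Elavl2 had log2 fold changes of 2.02 ± 0.35 in EAE (edgeR, adjusted p = 0.000477) and 1.63 ± 0.38 in healthy mice (adjusted p = 0.00376), and Elavl4 of 2.08 ± 0.43 (adjusted p = 0.00163) and 1.89 ± 0.51 (adjusted p = 0.00885). Of these, Elavl4 in healthy mice had overlapping sorts: healthy NeuN-positive library 3 (21.98 CPM) lay under healthy NeuN-negative library 5 (32.6 CPM).

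Celf4 (chromosome 18, 25477632 to 25754157, minus strand), whose loss in mice is known to cause seizures, ranged over 298 to 524 CPM in EAE and 264 to 493 CPM in healthy NeuN-positive libraries, and over 36.4 to 108 CPM in EAE and 21.0 to 80.2 CPM in healthy NeuN-negative libraries. The sorts separated fully, with log2 fold changes of 2.42 ± 0.38 in EAE (edgeR, adjusted p = 0.000189) and 2.72 ± 0.39 in healthy mice (adjusted p = 0.000121). EAE over healthy, the values were 0.16 ± 0.25 in NeuN-positive (edgeR, adjusted p = 0.712) and 0.51 ± 0.41 in NeuN-negative nuclei (adjusted p = 0.362). The first is -0.04 when libraries are scaled to their neuron marker counts.

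Srrm4 (chromosome 5, 116439275 to 116591817, minus strand), the driver of neuronal microexons, held 41.0, 13.3, 63.1, 37.8 and 43.4 CPM in EAE and 73.6, 73.5, 63.7, 79.0 and 77.8 CPM in healthy NeuN-positive libraries. In NeuN-negative libraries it stood at 8.18, 29.0, 7.90, 9.82 and 10.1 CPM in EAE and 4.68, 4.55, 12.8, 6.15 and 10.4 CPM in healthy mice. All EAE NeuN-positive libraries lay below all healthy ones, though EAE 3 at 63.1 CPM came close to healthy 3 at 63.7 CPM. In EAE mice the NeuN-negative library of number 2 exceeded the NeuN-positive one.

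The Srrm4 mean in NeuN-positive nuclei was 39.7 ± 17.8 CPM in EAE and 73.5 ± 6.03 CPM in healthy mice (SD, n = 5 each). The log2 fold change of -0.82 ± 0.29 did not pass (edgeR, adjusted p = 0.0889), and a full separation with the EAE libraries lower was seen for 3.96% of 20444 genes, against 4.93% with the EAE libraries higher. Without EAE NeuN-positive library 3 it was -1.04 and passed (edgeR, adjusted p = 0.0271), the 1 of 10 fits with a library left out that called Srrm4. Scaled to the summed neuron markers it was -0.97 (edgeR, adjusted p = 0.0731), and without the mice EAE 2, EAE 4 and healthy 3 it was -0.51 (adjusted p = 0.122). In NeuN-negative nuclei the value was 1.03 ± 0.50 (edgeR, adjusted p = 0.127), and 0.40 without EAE NeuN-negative library 2 (adjusted p = 0.508).

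Between sorts, Srrm4 was higher in NeuN-positive nuclei by a log2 fold change of 1.51 ± 0.47 in EAE (edgeR, adjusted p = 0.0227) and 3.27 ± 0.34 in healthy mice (adjusted p = 1.02e-05). The EAE call was lost without EAE NeuN-positive library 3 (edgeR, 1.33, adjusted p = 0.0514), and without the mice EAE 2 and EAE 4 the value was 2.47 (adjusted p = 0.000134). The antisense gene Srrm4os overlaps the span of Srrm4 by 26213 bases on the opposite strand and held 402 counts over all 20 libraries. Spans include introns, and whether exons overlap, so that reads could come from either gene, was not tested. Elavl2 is overlapped in the same way by Gm12653, over 561 bases and with 166 counts. So are Rbfox3 by Gm11750 (2457 bases, 177 counts) and Rbfox2 by 1700109K24Rik (11917 bases, 105 counts). Genes on the opposite strand also overlap Nova2 (Gm26821, 0 counts) and Celf4 (Gm3227 and 0710001A04Rik, neither listed in the table of counts).

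Markers of other cells moved with condition in NeuN-positive nuclei as well. The neuron markers were called lower for 1 of 18 and higher for 0, with a median log2 fold change of -0.13. Monocyte and macrophage markers were called higher for 13 of 15 tested and summed to 340 to 1978 CPM in EAE and 8.88 to 33.0 CPM in healthy mice, where Clec4d was at 0, and T cell markers for 7 of 8 (26.5 to 107 CPM in EAE, 6.98 to 13.7 CPM in healthy mice). EAE 2 held the least Srrm4 and Rbfox3 and the most of the monocyte and macrophage and oligodendrocyte markers in this sort. Their part in the Srrm4, Rbfox3 and Elavl4 values was not tested.

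**Figure D3:**
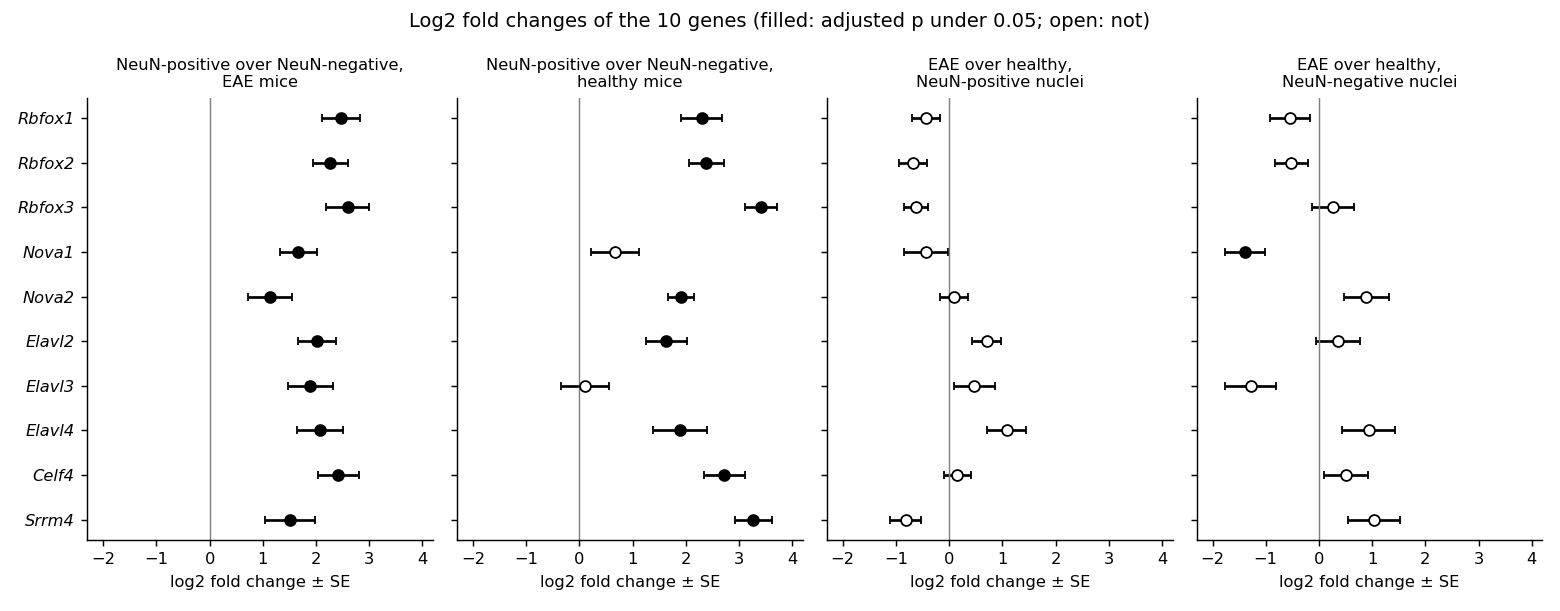
Log2 fold changes with standard errors (bars) of the 10 genes for NeuN-positive over NeuN-negative nuclei in EAE and in healthy mice, and for EAE over healthy mice in each sort, with filled points at an adjusted p under 0.05. In the sort comparisons 10 points are filled for EAE and 8 for healthy mice, and Nova1 at -1.39 in NeuN-negative nuclei is the filled point between conditions.

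The difference between the EAE effects of the sorts, NeuN-positive minus NeuN-negative, was tested on all 20 libraries. It gave 0 members higher and 0 lower, against 1.74% and 0.822% of 20444 genes (2.56% in either direction). At an unadjusted p under 0.05 there was 1 member higher, Elavl3 at 1.87 ± 0.61 (edgeR, adjusted p = 0.0912), and 1 lower, Srrm4 at -1.61 ± 0.55 (adjusted p = 0.109). The share of all genes under that unadjusted threshold is not given here. The DESeq2 Wald test called Srrm4 lower (-1.94, adjusted p = 0.0286), as it did 865 of 19640 genes. Nova1 had a difference of 1.08 ± 0.56 (edgeR, adjusted p = 0.31). The size order thus put Elavl3 and Srrm4 at opposite ends.

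With the number in the titles as a block, 2 members passed as higher, against 9.74% of genes: Elavl3 at 1.99 ± 0.40 (edgeR, adjusted p = 0.00505) and Nova1 at 1.30 ± 0.35 (adjusted p = 0.0241). Among the EAE numbers, 5 of 5 had a higher sort ratio than any healthy number for Elavl3, and 4 of 5 for Nova1. How many of all genes have ratios that separate in this way was not computed. Without the block, Elavl3 passed when EAE NeuN-negative library 3 was left out (edgeR, 2.10, adjusted p = 0.0451). This was the 1 of 20 such fits that called it, and it called 754 genes higher, against 356 with all libraries. Without the mice EAE 2, EAE 4 and healthy 3, Elavl3 had 1.37 (edgeR, adjusted p = 0.167) and Nova1 0.82 (adjusted p = 0.339).

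The other 7 genes, from Elavl2 at 0.52 to Rbfox3 at -0.69, had adjusted p of 0.454 or more (edgeR).

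Shares within a family do not depend on how libraries are scaled. Elavl3 made up 87.5% ± 3.25 of the Elavl2, Elavl3 and Elavl4 counts in EAE and 87.5% ± 9.41 in healthy NeuN-positive nuclei, and 86.2% ± 9.92 in EAE and 95.2% ± 5.73 in healthy NeuN-negative nuclei (SD, n = 5 each). Nova2 made up 12.6% ± 3.54 of the NOVA counts in EAE and 11.2% ± 4.60 in healthy NeuN-positive nuclei, and 18.2% ± 12.5 in EAE and 4.32% ± 1.40 in healthy NeuN-negative nuclei. Rbfox3 made up 44.0% ± 7.63 of the RBFOX counts in EAE and 45.8% ± 9.85 in healthy NeuN-positive nuclei, and 39.0% ± 13.6 in EAE and 28.6% ± 11.4 in healthy NeuN-negative nuclei. In NeuN-positive nuclei the conditions differed by less than the SDs for each family.

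None of the 10 tests of these shares passed (exact permutation test over 252 regroupings, two-sided, Benjamini-Hochberg over the 10 tests, smallest possible p = 0.00794). The lowest adjusted p of these exact tests, 0.0794 (p = 0.0159), was reached by the Nova2 share in 2 comparisons. These were healthy NeuN-positive against healthy NeuN-negative nuclei (difference 6.94 percentage points) and EAE against healthy NeuN-negative nuclei (13.9 percentage points), with 4 of 5 libraries above every library of the other group in each. Without healthy NeuN-negative library 5, these 2 tests and both tests of the Elavl3 share against healthy NeuN-negative nuclei passed (exact permutation test over 126 regroupings, adjusted p = 0.0397). The Elavl3 share then differed by -10.3 percentage points between the healthy sorts and by -11.6 between EAE and healthy NeuN-negative nuclei.

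**Figure D4:**
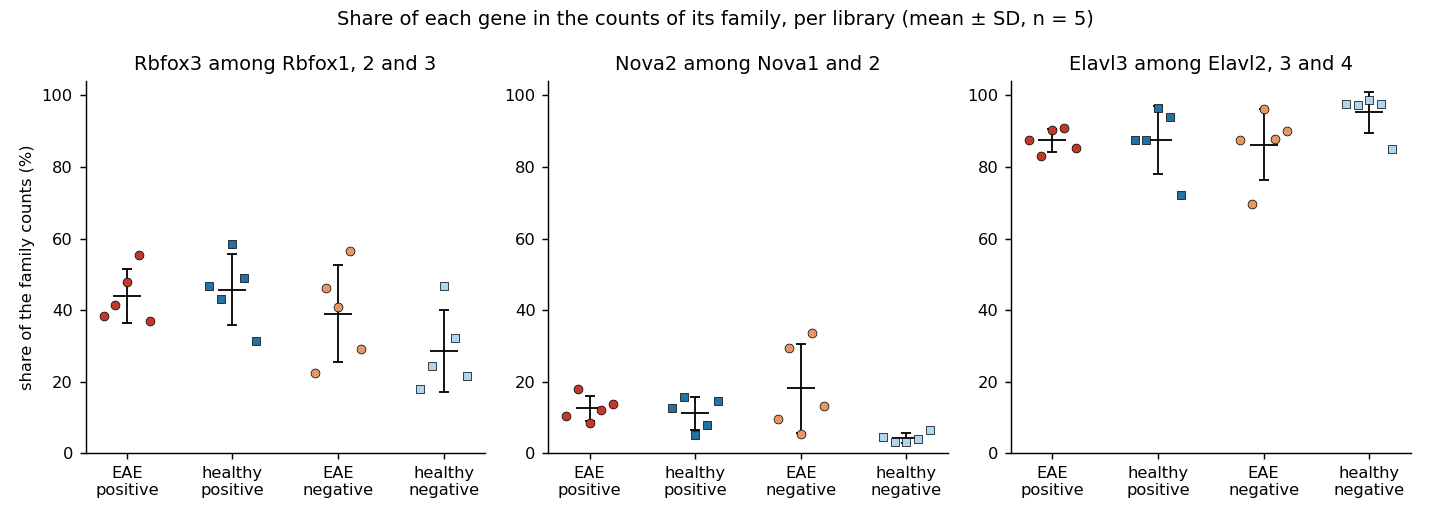
Share of Rbfox3, Nova2 and Elavl3 in the counts of their families (percent) per library, with the mean ± SD of 5 libraries, for EAE and healthy NeuN-positive and EAE and healthy NeuN-negative nuclei. Healthy NeuN-negative libraries lie at 3.19 to 6.61% for the Nova2 share and at 85.04 to 98.8% for the Elavl3 share.

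Across the 10 NeuN-positive libraries, the genes most like Rbfox3 by Pearson correlation of log2 CPM, among 9866 with a mean of at least 10 CPM, were AI480526 (r = 0.984), Tmc4 (0.981), Anapc2 (0.981), Slc25a23 (0.980) and Ap1m1 (0.979). All 5 averaged less in EAE than in healthy mice, for example Slc25a23, a mitochondrial carrier, at 173 ± 58.7 CPM in EAE and 328 ± 43.7 CPM in healthy mice (SD, n = 5 each). Of the members Srrm4 was nearest (r = 0.905, rank 401), and Elavl2 (r = -0.79) and Elavl4 (r = -0.70) ran opposite to Rbfox3. Elavl2 and Elavl4 followed each other (r = 0.918), as did Rbfox1 and Rbfox2 (r = 0.834), Rbfox1 and Srrm4 (r = 0.802) and Elavl3 and Celf4 (r = 0.801). Members of a family did not all run together: Elavl3 had r = 0.181 with Elavl2 and 0.053 with Elavl4, and Nova1 had 0.519 with Nova2. These values are a description over 10 libraries that fall into 2 conditions and share the scaling.

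Other regulators of splicing, 40 genes of which 39 were found, were called both ways between the sorts. Those named here and in the next lists are the ones with the smallest p. In EAE mice the NeuN-positive sort had 6 of 38 tested genes higher and 3 lower (15.5% and 14.8% of all genes), with a median log2 fold change of 0.17, and in healthy mice 9 of 37 were higher and 8 lower (22.8% and 23% of all genes), with a median of -0.16. The leading rises in EAE mice were Srrm3, the paralog of Srrm4 (3.86 ± 0.44, edgeR, adjusted p = 1.66e-05), and Celf3 (2.24 ± 0.35, adjusted p = 0.000179), and in healthy mice Celf5 (3.59 ± 0.27, adjusted p = 1.08e-06) and Celf6 (2.90 ± 0.28, adjusted p = 4.72e-06), all relatives of members. Rbm47, a cofactor of RNA editing in gut epithelium, was lower in NeuN-positive nuclei of EAE (-2.38 ± 0.41, adjusted p = 0.000405) and healthy mice (-2.42 ± 0.46, adjusted p = 0.000868). Ptbp3, a relative of the PTB repressor of neuronal exons, was lower in both too (-1.10 ± 0.30, adjusted p = 0.0118 in EAE; -1.24 ± 0.19, adjusted p = 0.000221 in healthy mice), and its EAE call was lost without EAE NeuN-positive library 1 (-1.01, adjusted p = 0.0558) or EAE NeuN-negative library 5 (-0.93, adjusted p = 0.0627) and with no count filter (-0.93, adjusted p = 0.107).

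Between conditions, NeuN-positive nuclei had 3 of 36 splicing regulators higher and 0 lower (6.55% and 3.68% of all genes). Rbm47 led at 3.44 ± 0.57 (edgeR, adjusted p = 0.0015), beside the macrophage markers given above, and Rbm20, a regulator of titin splicing in heart, had 0.97 ± 0.27 (adjusted p = 0.0365), a call lost in 6 of 10 fits with a library left out (all but those without EAE 2 or 3 or healthy 3 or 5) and in 5 of 7 other settings, with adjusted p up to 0.111. In NeuN-negative nuclei 4 of 39 were higher and 4 lower (15.1% and 12.6% of all genes). Rbm47 (3.42 ± 0.37, adjusted p = 9.37e-06) and Esrp1, an epithelial splicing factor (3.29 ± 0.97, adjusted p = 0.0195) led the rises, and the progenitor protein gene Msi1 (-1.28 ± 0.30, adjusted p = 0.0058) and the SR protein gene Srsf2 (-1.91 ± 0.53, adjusted p = 0.0155) the falls. Esrp1 lost its call in 4 of 10 such fits (without EAE 2 or 4 or healthy 1 or 2) and Srsf2 in 2 (without EAE 4 or healthy 5, the last at -1.24). Without the mice EAE 2, EAE 4 and healthy 3, 1 splicing regulator was higher in NeuN-positive nuclei, and Esrp1 in NeuN-negative nuclei had 0.84 (adjusted p = 0.421).

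Of 20 other mRNA-binding proteins, 2 of 20 were higher and 6 lower in the NeuN-positive sort of EAE mice (15.5% and 14.8% of all genes). In healthy mice 4 of 19 were higher and 7 lower (22.8% and 23%). The median log2 fold change was -0.33 in EAE and -0.53 in healthy mice, so the list as a whole did not lean to the NeuN-positive sort. Cpeb1, which controls poly(A) tails in dendrites, was the leading rise in EAE mice (2.22 ± 0.40, edgeR, adjusted p = 0.000555), and Stau2, a carrier of dendritic RNA, in healthy mice (1.21 ± 0.31, adjusted p = 0.00683). Fxr2, a relative of the fragile X protein, was second in both (1.04 ± 0.33, adjusted p = 0.0231 in EAE, and 0.61 ± 0.17, adjusted p = 0.0125 in healthy mice). The EAE call was lost in 4 of 10 fits (without EAE NeuN-positive 1, 3 or 5 or EAE NeuN-negative 4). The healthy call was lost without healthy NeuN-negative library 4 (0.54, adjusted p = 0.0536) and, by a wider margin, in 1 of 6 other settings. The falls were led by Zfp36l1 (-2.53 in EAE, adjusted p = 0.000146; -3.04 in healthy mice, adjusted p = 2.20e-05) and Zfp36 (-2.28, adjusted p = 0.0021; -1.93, adjusted p = 0.00251), which promote decay of AU-rich mRNA.

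Between conditions, 1 of 19 was higher and 0 lower in NeuN-positive nuclei, namely Zfp36l1 (1.70 ± 0.42, edgeR, adjusted p = 0.0213). Zfp36l1 lost this call without EAE library 1 (1.54, adjusted p = 0.0662) or healthy library 2 (1.53, adjusted p = 0.0696), and in 1 of 7 other settings. In NeuN-negative nuclei 3 of 20 were higher, led by Zfp36l1 (1.25 ± 0.33, adjusted p = 0.0113) and Zfp36 (1.497 ± 0.45, adjusted p = 0.0233), and 2 lower, the fragile X gene Fmr1 (-1.01 ± 0.32, adjusted p = 0.0303) and Cpeb1 (-1.08 ± 0.36, adjusted p = 0.0331). Of these calls Zfp36l1 lost 1 of 10 fits (without EAE 1), Zfp36 6 (without EAE 1, 3 or 5 or healthy 1, 2 or 4), Fmr1 7 (all but those without EAE 3 or healthy 3 or 4) and Cpeb1 6 (without EAE 2, 4 or 5 or healthy 1, 2 or 4). Without the mice EAE 2, EAE 4 and healthy 3, Cpeb1 had -0.59 (adjusted p = 0.0834). Zfp36l1 also missed with no count filter (0.98, adjusted p = 0.0763). Cpeb1 was the 1 gene of the list whose EAE effect differed between the sorts (1.86 ± 0.47, adjusted p = 0.0324), a call that 14 of 20 such fits and 1 of 5 other settings lost.

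Known targets of the members, 24 transcripts with an exon, a level or a stability that at least 1 of these proteins is known to control, were mostly neuronal. The NeuN-positive sort had 15 of 24 higher and 1 lower in EAE mice (15.5% and 14.8% of all genes) and 18 of 24 higher and 0 lower in healthy mice (22.8% and 23%), with a median log2 fold change of 1.43 in EAE and 1.48 in healthy mice. The calcium channel gene Cacna1b led in both (3.22 ± 0.37, edgeR, adjusted p = 1.89e-05 in EAE; 3.70 ± 0.21, adjusted p = 2.75e-07 in healthy mice). Rest, the repressor that SRRM4 acts on in splicing, was the fall in EAE mice (-1.26 ± 0.38, adjusted p = 0.0193), lost without EAE NeuN-positive library 1 (-1.13, adjusted p = 0.0754) or 4 (-1.02, adjusted p = 0.053) and with no count filter (-0.997, adjusted p = 0.123). Second among the rises were the NMDA receptor gene Grin1 in EAE (3.77 ± 0.43, adjusted p = 1.89e-05) and the calcium channel gene Cacna1a in healthy mice (2.74 ± 0.19, adjusted p = 5.03e-07).

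Counts of whole genes say nothing of exon choice, which is what most of these proteins act on. Between conditions 0 of 24 targets were called in NeuN-positive nuclei (edgeR), where the DESeq2 Wald test called 1 lower. In NeuN-negative nuclei 1 was higher, the kinase gene Camk2d (0.97 ± 0.33, adjusted p = 0.0371), and 3 lower, led by the NOVA targets Gphn, a scaffold of inhibitory synapses (-1.18 ± 0.32, adjusted p = 0.0126), and Agrn, an organizer of the neuromuscular junction (-1.54 ± 0.43, adjusted p = 0.0152). Camk2d lost its call in 8 of 10 fits with a library left out (all but those without EAE 3 or healthy 5) and with no count filter (0.55, adjusted p = 0.317), in the fit on 20 libraries (0.70, adjusted p = 0.138) and without the mice EAE 2, EAE 4 and healthy 3 (0.89, adjusted p = 0.0816), and Agrn in 1 (without EAE 4, -1.43, adjusted p = 0.0515). Agrn was also the 1 target whose EAE effect differed between the sorts (1.98 ± 0.51, edgeR, adjusted p = 0.039), a call that 15 of 20 such fits and 1 of 5 other settings lost.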

How the data were processed

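Nuclei of mouse spinal cord were sorted on NeuN, and RNA was purified on Qiagen columns and made into poly(A)-selected TruSeq libraries, per the labels' protocols. The authors deposited raw read counts per Ensembl gene, in 1 table of 20 libraries. The submitters' processing notes list STAR 2.4, DESeq2 and the builds GRCm39 and mm10, with no role given. Counter, annotation and strandedness were not given in the sources used here. Genes without a symbol (1167) took 0.2515 to 0.4144% of counts and stayed in the totals.

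Comparisons of 2 groups used their 10 libraries, and the difference of the EAE effects all 20, in edgeR 4.0.16 in R 4.3.3. The steps were filterByExpr by group, TMM scaling, a robust quasi-likelihood fit, and Benjamini-Hochberg adjustment over all genes tested, with calls at an adjusted p under 0.05. The standard error is the size of the log2 fold change over the square root of F. CPM used TMM over 20 libraries, and CPM per kb the exon union of GENCODE M21. Likeness used log2 CPM with a prior count of 2. Shares within families were tested by exact permutation (SciPy 1.17.1). The edgeR steps were tested on simulated data.

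Alternatives were DESeq2 1.42.0 size factors and Wald test, no count filter, the replicate block, a fit on all libraries, scaling to neuron markers and each library left out. A fit without the mice EAE 2, EAE 4 and healthy 3 was also made, which for the sort comparisons and the difference of the EAE effects was added after the data were seen. The members and lists were chosen with earlier results of these data known. All 10 members are named, and of each other list up to 2 rising and 2 falling called genes by smallest p.

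The titles number libraries 1 to 5 in each group. Deviations of same-numbered libraries of the 2 sorts correlated at 0.115 to 0.379 in EAE and 0.28 to 0.7 in healthy mice (at most 0.187 in EAE and 0.32 in healthy mice for different numbers). This met the limit of 0.1 set for pairing, so the fit with the number as a block is given beside the unpaired sort fits, which give every other sort value, where it changed a call. No label says that a number marks 1 mouse. Libraries of a group differed beyond sampling noise (chi-square per gene 11.1 to 392.8 over 40 pairs). The titles alone mark them as separate samples, and p-values measure the spread between these libraries, which may be technical in part.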

Additional observations from a re-analysis of the deposited data

Results flagged for a closer look

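The highest or lowest library of a group was far from the other 4 in 5 of 52 groups of values checked for members and family shares, a kind of gap that chance gives in about 1 of 20 groups. Healthy library 5 was the one concerned in 4 of them. Elavl2 stood at 61.8 CPM in healthy NeuN-positive library 5 and at 28.8 CPM in healthy NeuN-negative library 5, and Rbfox1 at 62.9 CPM in healthy NeuN-negative library 5, each far above the other healthy libraries of its sort. The Elavl3 share of the Elavl2, Elavl3 and Elavl4 counts was 85.04% in healthy NeuN-negative library 5, far below the other 4. Srrm4 stood at 29.0 CPM in EAE NeuN-negative library 2, the library with the highest mitochondrial share.

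The EAE effects of the sorts differed for 2 genes when the number in the titles was a block. The difference, NeuN-positive minus NeuN-negative, was 1.99 for Elavl3 (edgeR, adjusted p = 0.00505) and 1.30 for Nova1 (adjusted p = 0.0241), and neither passed without the block when all 20 libraries were used (adjusted p = 0.0912 for Elavl3 and 0.31 for Nova1). Elavl3 did pass without the block when EAE NeuN-negative library 3 was left out (2.10, adjusted p = 0.0451).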

How the results depend on the processing

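The sort calls of the members kept their direction under every alternative run, and only Nova2 and Srrm4 lost a call there, both in EAE mice. Genes called lower in the EAE sort comparison numbered 4065 with the Wald test. For EAE against healthy in NeuN-positive nuclei, 1746 genes were higher with the Wald test and 676 with neuron marker scaling, and 1247 were lower with the Wald test and 317 without the mice EAE 2, EAE 4 and healthy 3. In NeuN-negative nuclei 5618 genes were higher with no filter and 3786 lower in the fit on 20 libraries. Members called lower there numbered 2 with the Wald test, no filter or all 20 libraries, and 0 without those mice. For the difference of the EAE effects (356 genes higher, 168 lower), DESeq2 size factors gave 236 and 236, the Wald test 654 and 865, no filter 183 and 85, and 362 genes were lower without those mice. The Wald test called 1 member lower.

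With the replicate block, the difference gave 1992 genes higher and 500 lower, with 2 members higher. EAE and healthy mice share only a number (same-number correlation -0.323 to 0.211 in NeuN-positive and -0.335 to 0.275 in NeuN-negative nuclei), and there the block called 1 member higher in NeuN-positive nuclei, as the Wald test did. Of the other genes named there, Rbm20 (0.94, edgeR, adjusted p = 0.0721), Esrp1 (2.17, adjusted p = 0.14) and Fmr1 (-0.96, adjusted p = 0.0849) missed the threshold with it. Besides these and Nova1 between the healthy sorts, the block changed no call of a member, and share tests by sign flips, which cannot go below p = 0.0625, gave adjusted p of 0.125 to 0.813 (exact permutation test).

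Signs that turned were all of uncalled values. In NeuN-positive nuclei Nova1 was 0.070 without the 3 mice, Nova2 -0.063 with no filter, -0.10 with neuron scaling and -0.053 without the 3 mice, and Celf4 -0.041 with neuron scaling. In NeuN-negative nuclei Rbfox3 was -0.16 with no filter and -0.0011 with all 20 libraries, and Elavl2 -0.062 with no filter. In the difference Rbfox2 was 0.051 with no filter and 0.049 with the block. Scalings moved the median log2 fold change of all genes to -0.27 (EAE sort, DESeq2 size factors, against -0.16), -0.11 (difference, DESeq2 size factors, against 0.14) and -0.18 (NeuN-positive, neuron scaling, against -0.03).

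With each library left out in turn, genes lower in the EAE sort comparison ranged over 1731 to 3482 (lowest without EAE NeuN-positive 5). In NeuN-positive nuclei they ranged over 677 to 1721 higher (lowest without healthy 2, highest without healthy 3) and 178 to 1462 lower (lowest without EAE 5, highest without EAE 3), with 0 to 2 members higher and 0 to 2 lower. In NeuN-negative nuclei they ranged over 1796 to 4011 higher (highest without healthy 3) and 1370 to 2806 lower (lowest without EAE 5), with 0 to 1 members higher and 1 to 2 lower. The difference gave 63 to 754 genes higher (highest without EAE NeuN-negative 3), 21 to 353 lower (highest without healthy NeuN-negative 3) and 0 to 1 members higher. Log2 fold changes that crossed 0 were Elavl3 between healthy sorts (-0.26 to 0.47), Nova1 (-0.67 to 0.10), Nova2 (-0.13 to 0.22) and Celf4 (-0.027 to 0.32) in NeuN-positive and Rbfox3 (-0.17 to 0.35) in NeuN-negative nuclei, and in the difference Rbfox1 (-0.24 to 0.50), Rbfox2 (-0.24 to 0.24), Elavl4 (-0.19 to 0.78) and Celf4 (-0.55 to 0.10). Differences of shares, in percentage points, were -5.40 to 1.39 (Rbfox3), -0.220 to 2.49 (Nova2) and -3.89 to 2.17 (Elavl3) in NeuN-positive nuclei, -2.88 to 3.78 (Elavl3) between EAE sorts, 5.79 to 8.50 (Nova2) and -10.3 to -3.90 (Elavl3) between healthy sorts, and 10.04 to 17.1 (Nova2) and -11.6 to -4.91 (Elavl3) in NeuN-negative nuclei. The cause of these moves was not tested. With 3149209 counts in the shallowest library, genes near 10 CPM rest on few reads.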
